A study of Mus musculus with 10 samples.

Results

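Transcripts of 10 genes that mark eosinophils, basophils and mast cells were followed across 10 mRNA libraries of sorted mouse cells. The 10 genes are Prg2, Epx, Prg3, Ccr3, Mcpt8, Prss34, Cpa3, Fcer1a, Ms4a2 and Hdc. They were chosen by name for their known roles, out of 17603 genes with a value, and each is listed in every library. Every one of the 10 was at its highest in the splenic CD45+ libraries. In tumor CD45+ and splenic CD45- libraries none passed 2.38 FPKM, the transcript level per length and per library depth, against 0.54 to 1056 FPKM in splenic CD45+ libraries. The splenic CD45+ libraries also differed from each other, with the 4 eosinophil genes highest in replicate 1 and the 6 basophil and mast cell genes highest in replicate 3.

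Eosinophils, basophils and mast cells are granulocytes of allergy and defence against parasites. Eosinophil granules are packed with cationic proteins, among them major basic protein and eosinophil peroxidase, and the cells follow eotaxins through the receptor CCR3. Basophils and mast cells bind IgE through a receptor made of an alpha, a beta and a shared gamma chain, and on crosslinking release histamine and granule proteases. Eosinophils and basophils arise in bone marrow, and in mice with tumors or infection the spleen can also make granulocytes. Granule protein genes are transcribed most strongly in precursors.

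All libraries came from wild-type female C3H/HeN mice injected with SCC7 cells, a mouse squamous carcinoma line, with the disease labelled HNSCC (head and neck squamous cell carcinoma). Cells labelled EPC, an abbreviation that the labels leave unexplained, were isolated by FACS. There were 4 libraries of tumor CD45+ cells, 3 of splenic CD45+ cells and 3 of splenic CD45- cells, CD45 being the surface protein shared by leukocytes. No age is given, every group came from tumor-bearing mice, and the labels do not say whether replicates were separate animals or pools, so p-values measure the spread between these libraries.

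Depth, estimated from the smallest steps in the values, was about 24800000 to 28200000 fragments per library. Globin transcripts took 1.80 to 10.4% of the summed FPKM in tumor CD45+, 29.3 to 52.1% in splenic CD45+ and 62.5 to 63.5% in splenic CD45- libraries. A list of 6 erythroid genes had a median of 0.245 to 3.42 FPKM in tumor CD45+ libraries, against 1111 to 1723 FPKM in splenic CD45+ and 2449 to 2686 FPKM in splenic CD45- libraries. In the tumor Klf1, Epor and Slc4a1 of that list were at 0.09 to 3.25 FPKM, while Hba-a1 had 5916 to 40541 FPKM and Alas2 39.4 to 224 FPKM. A list of 7 macrophage genes had a median of 798 to 972 FPKM in tumor CD45+ libraries. Ptprc, which encodes CD45, had 59.4 to 92.5 FPKM in tumor CD45+, 39.2 to 265 FPKM in splenic CD45+ and 1.63 to 2.57 FPKM in splenic CD45- libraries. Splenic CD45+ replicate 2 stood apart: its Ptprc was 39.2 FPKM, against 265 FPKM in replicate 1 and 153 FPKM in replicate 3. Tumor CD45+ replicate 1 also stood apart, with the 10.4% globin share and a median of 39.5 FPKM over 8 neutrophil genes, against 1.14 to 1.16 FPKM in the other 3 tumor libraries.

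The genes lie on several chromosomes (GRCm38.p6, whole gene spans). Prg2 (chr2:84980461-84983632) and Prg3 (chr2:84988196-84996559) are neighbours, 4564 bases apart. Epx is at chr11:87863997-87875536, Ccr3 at chr9:124017825-124031692, Mcpt8 at chr14:56082163-56085499 and Prss34 at chr17:25298394-25300168. Cpa3 is at chr3:20215616-20242209, Fcer1a at chr1:173221269-173227232, Ms4a2 at chr19:11615517-11623790 and Hdc at chr2:126593659-126624025. GATA factors, C/EBP factors and PU.1 are known regulators of these lineages, so promoters were searched on both strands for GATAA, for TTGCNNAA and for GAGGAAG. RefSeq promoters, running from 250 bases before to 50 after a listed start, were at hand for 9 of the 10 genes. GATAA was found in 6 of those 9, and 25.4% of 32851 mouse promoters of this length hold it. TTGCNNAA was found in 1 of the 9, against 10.8% of all promoters, and GAGGAAG in 0 of the 9, against 13.6%. GATAA can also be part of an AT-rich box near a start site. A match is a string of letters and not a shown binding site. Of the 6 with GATAA, Ccr3 and Fcer1a, with matches 29 and 92 bases before the start, are not printed. The promoters of the other 4 genes are printed: an eosinophil granule protein, a basophil protease, the granule carboxypeptidase and the IgE receptor beta chain. They run 5′ to 3′ on the gene's own strand in lower case, with GATAA or its reverse complement TTATC in capitals.
Prg3: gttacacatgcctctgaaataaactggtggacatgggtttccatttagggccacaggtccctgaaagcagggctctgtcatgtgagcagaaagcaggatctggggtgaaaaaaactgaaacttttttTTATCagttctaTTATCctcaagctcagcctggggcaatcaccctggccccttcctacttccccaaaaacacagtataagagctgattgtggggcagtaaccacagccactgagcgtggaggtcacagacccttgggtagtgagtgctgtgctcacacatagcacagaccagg
Prss34: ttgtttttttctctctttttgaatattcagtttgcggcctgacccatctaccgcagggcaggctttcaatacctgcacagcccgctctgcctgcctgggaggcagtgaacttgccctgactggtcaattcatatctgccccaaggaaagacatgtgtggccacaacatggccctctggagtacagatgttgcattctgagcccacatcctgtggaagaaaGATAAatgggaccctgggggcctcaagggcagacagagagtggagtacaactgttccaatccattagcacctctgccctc
Cpa3: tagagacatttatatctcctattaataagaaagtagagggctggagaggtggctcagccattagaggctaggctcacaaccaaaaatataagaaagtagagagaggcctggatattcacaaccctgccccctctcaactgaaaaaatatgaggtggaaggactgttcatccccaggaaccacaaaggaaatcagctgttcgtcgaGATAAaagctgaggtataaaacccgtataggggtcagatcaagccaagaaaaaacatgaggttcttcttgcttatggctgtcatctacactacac
Ms4a2: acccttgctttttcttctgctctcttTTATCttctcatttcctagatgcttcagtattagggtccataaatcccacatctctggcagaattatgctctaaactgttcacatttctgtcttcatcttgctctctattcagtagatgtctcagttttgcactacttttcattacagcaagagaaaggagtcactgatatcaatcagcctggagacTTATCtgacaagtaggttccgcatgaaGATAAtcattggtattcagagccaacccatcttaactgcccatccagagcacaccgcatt
The first is chr2:84987965-84988264 on the plus strand and its matches start 123 and 111 bases before the start site. The second is chr17:25298144-25298443 on the plus strand with its match 30 bases before the start. The third is chr3:20242132-20242431 on the minus strand with its match 45 bases before the start. The fourth is chr19:11623670-11623969 on the minus strand, with matches 224, 37 and 10 bases before the start.

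**Figure D1:**
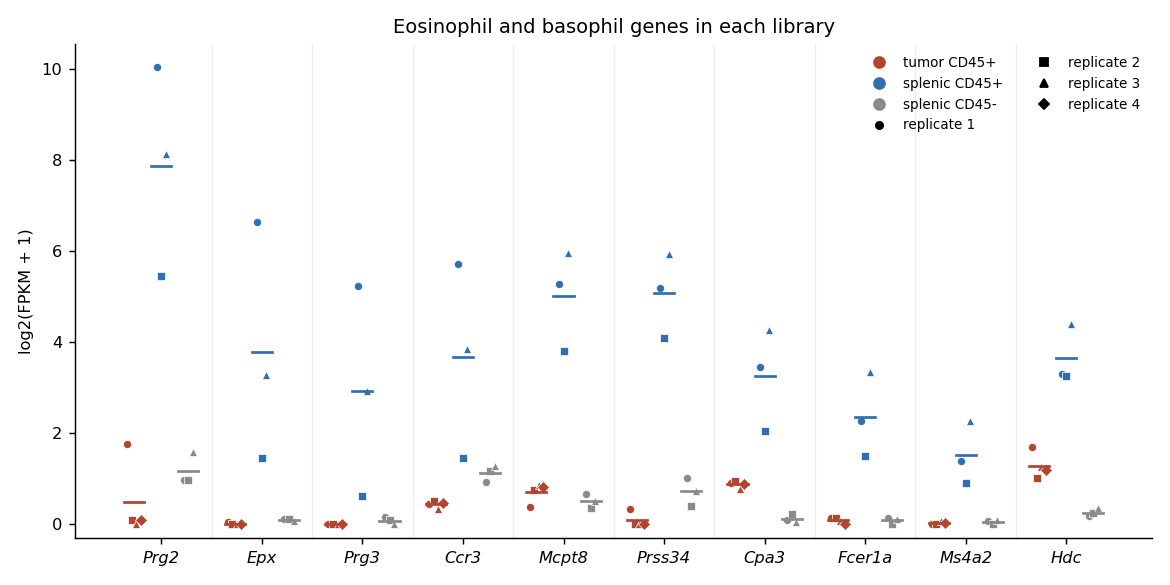
Each point is a library, plotted as log2(FPKM + 1) for each of the 10 genes, with tumor CD45+ on the left, splenic CD45+ in the middle and splenic CD45- on the right of each gene, symbols for replicates and bars for group means. The splenic CD45+ points lie above both other groups for 10 of 10 genes, and replicate 2 is the lowest splenic CD45+ library for each.

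Prg2, which encodes the major basic protein of eosinophil granules, was the most abundant of the 10 per length in the splenic CD45+ libraries. It had 2.38, 0.06, 0 and 0.06 FPKM in tumor CD45+ libraries 1 to 4, 1056, 43.0 and 277 FPKM in splenic CD45+ libraries 1 to 3, and 0.95, 0.97 and 2.02 FPKM in splenic CD45- libraries 1 to 3. The lowest splenic CD45+ library lay above every library of both other groups. These values correspond to about 15221, 663 and 4144 fragments in the splenic CD45+ libraries, and to 14 to 33 in the splenic CD45- libraries. In tumor CD45+ libraries the estimate was 38 fragments in replicate 1 and 0 to 1 in the other 3.

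Epx encodes eosinophil peroxidase. Its values were 0.04, 0, 0 and 0 FPKM in tumor CD45+ libraries, 98.1, 1.73 and 8.72 FPKM in splenic CD45+ libraries, and 0.08, 0.08 and 0.05 FPKM in splenic CD45- libraries. The groups did not overlap, but replicate 1 alone held 90.4% of the splenic CD45+ sum. The curated Epx model enters these tables as a numbered copy (97.4 FPKM in splenic CD45+ replicate 1), beside 2 predicted models. Prg3 encodes a homologue of major basic protein. It was listed at 0 in all 4 tumor CD45+ libraries, had 36.4, 0.54 and 6.63 FPKM in splenic CD45+ libraries, and 0.11, 0.06 and 0 FPKM in splenic CD45- libraries. Prg3 did not reach 1 FPKM in 3 libraries, the minimum for a test, so its groups are described without one.

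Ccr3, the eotaxin receptor of eosinophils, had 0.37, 0.43, 0.27 and 0.38 FPKM in tumor CD45+ libraries, 51.4, 1.76 and 13.4 FPKM in splenic CD45+ libraries, and 0.91, 1.25 and 1.43 FPKM in splenic CD45- libraries. Here splenic CD45+ replicate 2 was only just above the highest splenic CD45- library. The Ccr3 fragments of that replicate numbered about 131.

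Mcpt8 and Prss34 encode serine proteases of mouse basophil granules. Mcpt8 had 0.31, 0.69, 0.81 and 0.77 FPKM in tumor CD45+ libraries, 37.5, 12.9 and 60.7 FPKM in splenic CD45+ libraries, and 0.58, 0.28 and 0.43 FPKM in splenic CD45- libraries. Prss34 had 0.27, 0, 0 and 0 FPKM in tumor CD45+ libraries, 35.7, 16.0 and 60.6 FPKM in splenic CD45+ libraries, and 1.03, 0.33 and 0.67 FPKM in splenic CD45- libraries. For both, replicate 3 was the highest splenic library and replicate 2 the lowest, and no library of another group came near them. The 2 proteases were at almost the same level per length within a library, with a ratio of Mcpt8 to Prss34 of 1.05, 0.81 and 1.00 in splenic CD45+ replicates 1 to 3.

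Cpa3 encodes the granule carboxypeptidase of mast cells and basophils. It had 0.88, 0.92, 0.72 and 0.85 FPKM in tumor CD45+ libraries, 10.03, 3.12 and 18.3 FPKM in splenic CD45+ libraries, and 0.07, 0.17 and 0.03 FPKM in splenic CD45- libraries. All 4 tumor values lay above the 3 splenic CD45- values and below the 3 splenic CD45+ values.

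Fcer1a and Ms4a2 encode the alpha and beta chains of the high-affinity IgE receptor. Fcer1a had 0.10, 0.10, 0.05 and 0 FPKM in tumor CD45+ libraries, 3.80, 1.81 and 9.13 FPKM in splenic CD45+ libraries, and 0.10, 0 and 0.09 FPKM in splenic CD45- libraries. Ms4a2 had 0, 0, 0.05 and 0.02 FPKM in tumor CD45+ libraries, 1.63, 0.87 and 3.79 FPKM in splenic CD45+ libraries, and 0.05, 0 and 0.07 FPKM in splenic CD45- libraries. Both chains were at or close to 0 outside the splenic CD45+ group. Ms4a2 was the least abundant of the 10 in that group and stayed below the filter for testing. Its models of known length held about 30, 4 and 53 fragments in the splenic CD45+ libraries, which leaves out a predicted model of unknown length with 0, 0.68 and 1.08 of the FPKM given above.

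Hdc encodes histidine decarboxylase, the enzyme that makes histamine, and is also known to be expressed in immature myeloid cells. It had 2.25, 1.01, 1.4 and 1.28 FPKM in tumor CD45+ libraries, 8.91, 8.53 and 20.02 FPKM in splenic CD45+ libraries, and 0.13, 0.18 and 0.28 FPKM in splenic CD45- libraries. The 3 groups were fully separate, and Hdc was the member with a clear signal in the tumor, at about 58 to 132 fragments per library. Splenic CD45+ replicate 2 was not reduced against replicate 1 for Hdc as it was for the other 9.

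Tumor CD45+ cells were then compared with splenic CD45+ cells, which sets tissue against tissue within the CD45+ gate. Of the 10 genes, 8 passed the filter (1 FPKM in at least 3 of the 7 libraries) and 8 of 8 were lower in the tumor by limma on log2(FPKM + 1), with Benjamini-Hochberg adjustment over 11463 genes at 0.05. Of all genes tested, 26.0% were called lower and 63.8% were called in either direction. Of the 8, 6 were below 1 FPKM in all 4 tumor libraries and passed through the splenic group alone, which leaves only a fall to be called. Groups did not overlap for 10 of 10 genes, against 66.5% of all genes tested. The median difference of the 8 was -3.50, beside 0.20 over all genes. The scaling of the libraries moved that overall median between -0.20 and 0.20, far less than any of the 8 differences.

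The drop was -7.39 for Prg2 (SE 0.99, adjusted p = 4.05e-04 by limma) and -3.77 for Epx (SE 1.02, adjusted p = 0.0128 by limma). Ccr3 fell by 3.23 (SE 0.83, adjusted p = 0.0101 by limma). Among the proteases, Prss34 fell by 4.99 (SE 0.39, adjusted p = 2.33e-05 by limma) and Mcpt8 fell by 4.30 (SE 0.45, adjusted p = 1.16e-04 by limma). Cpa3, Fcer1a and Hdc had differences of -2.38, -2.28 and -2.36, with adjusted p-values of 0.00240, 0.00115 and 3.60e-04 by limma. All are log2(FPKM + 1) differences, in which the added 1 shrinks the change of genes near 0. With tumor replicate 1 and splenic CD45+ replicate 2 both left out, a choice made after the data were seen, the 8 genes were still called and Prg2 was at -9.03. Without splenic CD45+ replicate 1 they were also called, with smaller differences of -6.31 for Prg2, -2.35 for Epx and -2.21 for Ccr3. In bulk libraries, fewer cells of a type and less RNA per cell cannot be told apart. Neutrophil and B cell genes moved the same way: the median over 8 neutrophil genes was 1.14 to 39.5 FPKM in tumor CD45+ and 732 to 2971 FPKM in splenic CD45+ libraries, and over 4 B cell genes 0.065 to 0.76 FPKM in tumor CD45+ and 24.1 to 244 FPKM in splenic CD45+ libraries. Macrophage genes moved the other way, with a median of 798 to 972 FPKM in tumor CD45+ and 9.39 to 201 FPKM in splenic CD45+ libraries. The part of the cell mix in the fall of the 10 genes was not tested.

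**Figure D2:**
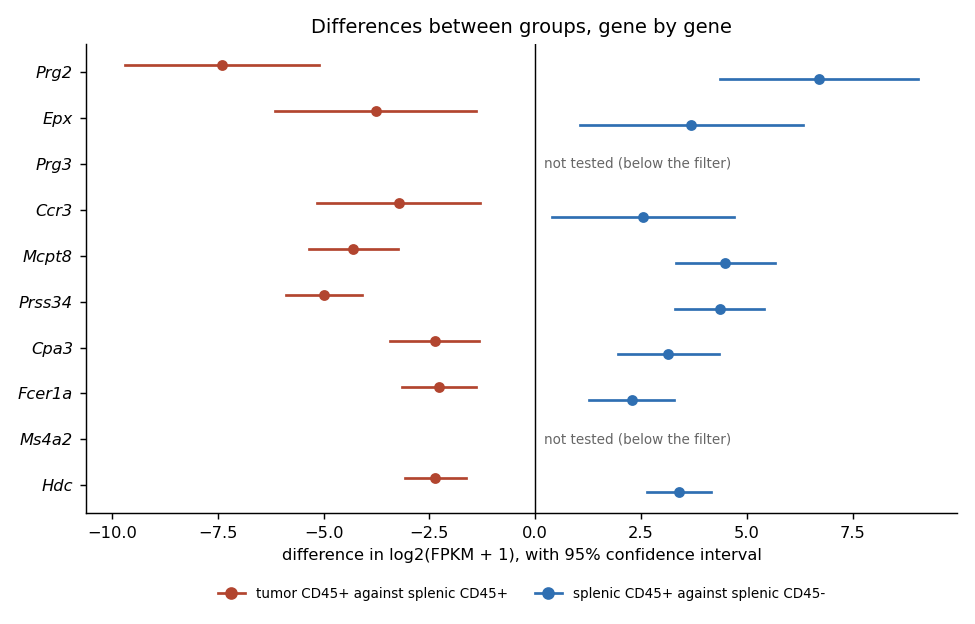
Differences in log2(FPKM + 1) with 95% confidence intervals from limma, for tumor CD45+ against splenic CD45+ (red, above) and splenic CD45+ against splenic CD45- (blue, below). All 8 tested genes lie left of 0 in the first comparison and right of 0 in the second, and the intervals of Prg2, Epx and Ccr3 are the widest.

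Within the spleen, CD45+ cells were compared with CD45- cells. Again 8 of the 10 passed the filter and 8 of 8 were higher in CD45+ cells, where 50.5% of the 9728 genes tested were called higher, 5.02% lower and 55.5% in either direction, so the count says little about these genes in particular. Of the 8, 5 were below 1 FPKM in all 3 CD45- libraries and passed through the CD45+ group alone. The groups did not overlap for 10 of 10 genes, against 66.2% of genes tested. The median difference of the 8 was 3.54, beside 0.67 over all genes. Under trimmed-mean scaling the overall median was -0.14.

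Prg2 was higher by 6.70 (SE 1.00, adjusted p = 0.00193 by limma), Mcpt8 by 4.49 (SE 0.50, adjusted p = 9.79e-04 by limma) and Prss34 by 4.35 (SE 0.45, adjusted p = 7.88e-04 by limma). Hdc was higher by 3.39 (SE 0.33, adjusted p = 6.79e-04 by limma), Cpa3 by 3.14 (SE 0.51, adjusted p = 0.00251 by limma) and Fcer1a by 2.28 (SE 0.43, adjusted p = 0.00396 by limma). Epx was higher by 3.69 (SE 1.13, adjusted p = 0.0258 by limma) and Ccr3 by 2.55 (SE 0.92, adjusted p = 0.0479 by limma), and these 2 rest on replicates that differ widely. Without splenic CD45+ replicate 3 the adjusted p was 0.0612 for Epx and 0.127 for Ccr3, and without any one of the CD45- libraries both also missed 0.05. Without splenic CD45+ replicate 1, Epx was at 2.27 (adjusted p = 0.0123 by limma) and Ccr3 at 1.53 (adjusted p = 0.0924 by limma). Without splenic CD45+ replicate 2, Ccr3 was at 3.65 with an adjusted p of 5.37e-05 by limma. Neutrophil, macrophage and B cell genes were also higher in CD45+ cells: their list medians were 732 to 2971, 9.39 to 201 and 24.1 to 244 FPKM in CD45+ libraries, against 12.5 to 17.5, 2.59 to 3.70 and 4.16 to 5.79 FPKM in CD45- libraries, and their part in the result was not tested.

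Tumor CD45+ and splenic CD45- cells differ in both tissue and gate, and what each contributes cannot be told apart. This comparison shares its libraries with the other 2. Only Hdc passed the filter, and it was higher in the tumor by 1.03 (SE 0.15, adjusted p = 1.38e-04 by limma), where 90.0% of 11208 genes were called in either direction and 67.5% were called higher and 22.5% lower. Hdc was below 1 FPKM in every CD45- library, so only a rise could be called. The median over all genes tested was 1.06, about the size of the Hdc difference, and 0.070 under trimmed-mean scaling. Over the alternatives its difference lay between 0.60 and 2.39. Of the other 9 genes, which stayed below the filter, Cpa3 lay higher in every tumor library than in any CD45- library. Ccr3, Prss34 and Epx lay lower in every tumor library than in any CD45- library, Epx with at most 0.08 FPKM in either group, and the other 5 overlapped. Including Hdc, groups did not overlap for 5 of 10 genes, against 88.8% of all genes tested.

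The 3 splenic CD45+ libraries ordered the genes in 2 ways, a pattern noticed after the values were seen and given as a description. Each of the 4 eosinophil genes was highest in replicate 1, which held 76.7 to 90.4% of the sum over the 3 libraries, and its level there was 3.81 to 11.2 times that in replicate 3. Each of the 6 basophil and mast cell genes was highest in replicate 3, which held 53.4 to 61.9%, and replicate 1 had 0.42 to 0.62 of its level. All 10 were lowest in replicate 2. So were 7 of 7 macrophage, 4 of 4 B cell and 5 of 5 T and NK cell genes, but 0 of 8 neutrophil genes. Summed FPKM of the eosinophil genes were 1242, 47.0 and 306 in replicates 1 to 3, and of the basophil and mast cell genes 97.6, 43.25 and 173. The ratio of the first sum to the second was 12.7, 1.09 and 1.77. In tumor CD45+ libraries the same sums were 0.27 to 2.79 FPKM for eosinophil genes and 2.72 to 3.81 FPKM for basophil and mast cell genes.

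**Figure D3:**
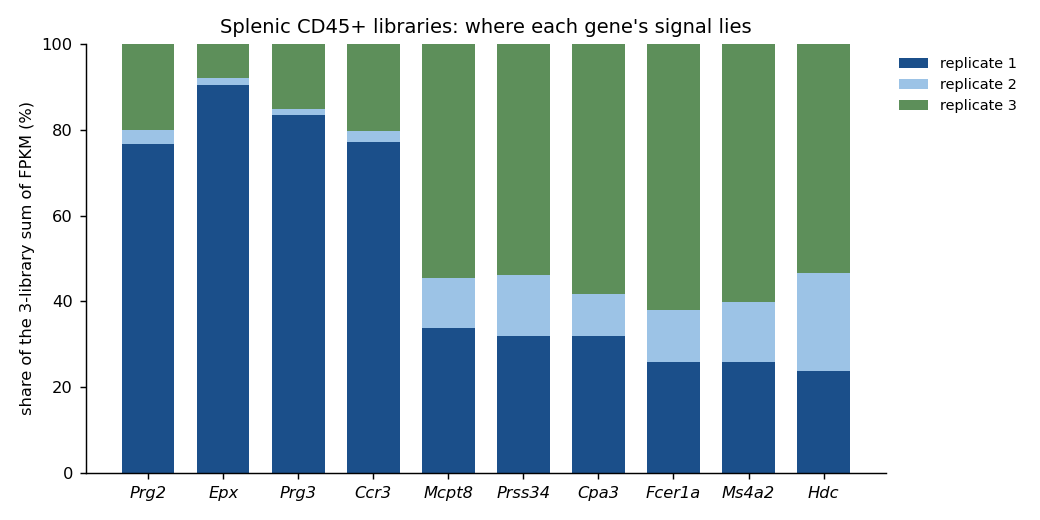
Bars show, for each gene, the percentage of its summed FPKM over the 3 splenic CD45+ libraries that lay in replicate 1 (dark blue), replicate 2 (light blue) and replicate 3 (green). Replicate 1 holds more than 76% for the 4 eosinophil genes on the left, and replicate 3 more than 53% for the other 6.

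Some pairs of genes from the same cell type kept their ratio across these libraries, but this was not particular to such pairs, as macrophage genes below show. The ratio of Prg2 to Ccr3 was 20.6, 24.4 and 20.6 in splenic CD45+ replicates 1 to 3, and that of Mcpt8 to Cpa3 was 3.74, 4.14 and 3.31. The ratio of Prg2 to Mcpt8, an eosinophil to a basophil gene, was 28.2, 3.33 and 4.57. Not all same-type pairs were steady: Prg2 to Epx was 10.8, 24.9 and 31.8, and Mcpt8 to Hdc was 4.21, 1.51 and 3.03. Prg2 to Prg3 was also unsteady, at 29.0, 79.6 and 41.8, so Prg2 to Ccr3 was the only steady eosinophil pair given. Lists of other cell types also differed between these libraries. The median of the macrophage list was 201, 9.39 and 40.5 FPKM in replicates 1 to 3, highest in replicate 1 like the eosinophil genes, with 6 of 7 genes highest there. Prg2 had 76.7, 3.12 and 20.2% of its splenic CD45+ sum in replicates 1 to 3. The macrophage genes Adgre1, with 74.0, 3.60 and 22.4%, and Cd68, with 75.7, 3.91 and 20.4%, were split much alike. Lyz2 of the same list was not, with 35.4, 18.0 and 46.6%. A steady ratio to Prg2 therefore does not mark a gene as an eosinophil gene here. The median of 4 neutrophil primary granule genes was 69.5, 42.0 and 133 FPKM, highest in replicate 3 like the basophil genes, with 4 of 4 highest there. The median of 8 later neutrophil genes was 732, 1171 and 2971 FPKM, another order, in which replicate 2 was not the lowest. What these cell types contribute to the 2 patterns was not tested.

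Of 7 other eosinophil genes, 4 passed the filter in each CD45+ comparison, and all 4 (Ear1, Ear2, Ear6 and Alox15) were lower in tumor CD45+ than in splenic CD45+ and higher in splenic CD45+ than in splenic CD45- cells. Over all genes tested 26.0% were called lower in the first comparison and 50.5% higher in the second. In each comparison 3 of the 4 were below 1 FPKM in all libraries of the other group, so this was the only direction that could be called for them. Ear1, Ear2 and Ear6 encode eosinophil-associated ribonucleases. Ear6 had 0.24, 0, 0 and 0 FPKM in tumor CD45+ libraries, 150, 9.63 and 54.6 FPKM in splenic CD45+ libraries, and 0, 0.09 and 0.63 FPKM in splenic CD45- libraries. Its 3 groups were ordered like those of Prg2. Values of Ear1 and Ear2 are uncertain, since 57.4% and 41.5% of their 50-base stretches occur in other genes, while those of 8 of the 10 marker genes occur nowhere else and for Ms4a2 and Hdc 2.1% and 0.16% do. Ear1, Ear2 and Ear6 were also the 3 genes with the profile closest to Prg2 over the 10 libraries among 11541 genes, with root mean square differences of 0.948, 0.977 and 0.939 in centred log2 values. The following 2 genes were picked after their values were seen. Il5ra, the receptor chain for the eosinophil growth factor IL-5, was listed at 0 in all 4 tumor CD45+ libraries, had 0.89, 0.15 and 3.15 FPKM in splenic CD45+ libraries and 0.02 to 0.03 FPKM in splenic CD45- libraries. It was highest in replicate 3 and not in replicate 1. So was Alox15, with 1.71, 1.0 and 5.19 FPKM in splenic CD45+ replicates 1 to 3. Siglecf, a surface receptor of eosinophils, had 0.02 to 0.12 FPKM in tumor CD45+ libraries and 1.11, 0.33 and 1.11 FPKM in splenic CD45+ libraries, and was listed at 0 in splenic CD45- libraries.

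Among 7 other basophil genes, 2 passed the filter in the tumor CD45+ against splenic CD45+ comparison, and they moved apart. Il3ra, the receptor chain for the basophil growth factor IL-3, had 14.2 to 15.4 FPKM in tumor CD45+ and 1.45 to 6.21 FPKM in splenic CD45+ libraries, a rise of 1.66 (adjusted p = 0.00474 by limma). Il18rap, a chain of the IL-18 receptor, had 4.89 to 6.25 FPKM in tumor CD45+ and 7.32 to 16.6 FPKM in splenic CD45+ libraries and was lower by -0.81 (adjusted p = 0.0243 by limma). Without tumor replicate 1, 3 or 4 Il18rap missed the threshold, with adjusted p-values of up to 0.0785 by limma. Both genes are used by other leukocytes as well. Cd200r3, below the filter and picked after its values were seen, had 0 to 0.28 FPKM in tumor CD45+ libraries. In splenic CD45+ replicates 1 to 3 it had 0.69, 0.36 and 2.18 FPKM, highest in replicate 3. Itga2, also below the filter, had 0.22 to 0.36 FPKM in tumor CD45+ and 0.88, 0.09 and 0.44 FPKM in splenic CD45+ libraries. Il4, Il13 and Ptgdr2 did not pass 0.13 FPKM in any library.

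Of 12 other mast cell genes, 11 had a value and 4 passed the filter in the tumor CD45+ against splenic CD45+ comparison. Of the 4, 3 were called higher and 1 lower, where 37.7% of all genes tested were higher and 26.0% lower. Mitf, a transcription factor of mast cells and macrophages, had 6.64 to 7.44 FPKM in tumor CD45+ and 0.37 to 1.51 FPKM in splenic CD45+ libraries, a rise of 2.17 (adjusted p = 7.78e-05 by limma). Kit, the stem cell factor receptor, fell to 0.09 to 0.31 FPKM in tumor CD45+ libraries, against 1.49 to 2.67 FPKM in splenic CD45+ libraries (-1.36, adjusted p = 1.50e-04 by limma). Tpsb2, a mast cell tryptase, had 1.74, 1.35, 1.22 and 0.83 FPKM in tumor CD45+ libraries and 0, 0 and 0.11 FPKM in splenic CD45+ libraries (1.13, adjusted p = 3.51e-04 by limma). Kit was below 1 FPKM in all tumor CD45+ libraries and Tpsb2 in all splenic CD45+ libraries, so for each only the direction found could be called. The fourth, Il1rl1, was also higher in the tumor. Mcpt4, a connective tissue mast cell chymase that was picked after its values were seen, had 2.04, 0.85, 0.93 and 1.03 FPKM in tumor CD45+ libraries and 0, 0 and 0.63 FPKM in splenic CD45+ libraries, and was listed at 0 in the 3 splenic CD45- libraries. Other proteases of the list, below the filter, lay the other way: Cma1 averaged 0.70 FPKM in tumor CD45+ and 1.98 FPKM in splenic CD45+ libraries, Mcpt1 0.025 FPKM in tumor CD45+ and 0.38 FPKM in splenic CD45+ libraries, and Mcpt2 0.04 FPKM in tumor CD45+ and 0.84 FPKM in splenic CD45+ libraries.

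The gamma chain of the IgE receptor behaved unlike the other 2. Fcer1g, which also serves Fc receptors of macrophages and neutrophils, had 1085 to 1229 FPKM in tumor CD45+ libraries, 243, 48.9 and 157 FPKM in splenic CD45+ libraries and 4.48 to 4.84 FPKM in splenic CD45- libraries. It was higher in tumor CD45+ than in splenic CD45+ cells by 3.21 (adjusted p = 6.98e-04 by limma), while Fcer1a and Ms4a2 lay near 0 in the tumor. Of the 13 genes of signalling below the receptor, Fcer1g included, 3 were higher and 2 lower in that comparison, where 37.7% of all genes tested were higher and 26.0% lower. The 2 that fell are adaptors: Lat had 0.33 to 0.86 FPKM in tumor CD45+ and 4.37 to 28.2 FPKM in splenic CD45+ libraries (-3.17, adjusted p = 0.00114 by limma), and Grap2 had 0.30 to 1.37 FPKM in tumor CD45+ and 5.32 to 17.9 FPKM in splenic CD45+ libraries (-2.62, adjusted p = 6.98e-04 by limma). In splenic CD45+ against splenic CD45- cells 12 of the 13 were higher, where 50.5% of all genes tested were, and 7 of the 13 were below 1 FPKM in all CD45- libraries, so that only a rise could be called. In the splenic CD45+ group 13 of 13 were highest in replicate 1, unlike Fcer1a and Ms4a2. Also highest there were 6 of 7 macrophage and 4 of 5 T and NK cell genes, against 2 of 4 B cell and 0 of 8 neutrophil genes.

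Among 8 genes of histamine storage, breakdown and sensing, 4 passed the filter in the tumor CD45+ against splenic CD45+ comparison and 2 were called. Both were higher, where 37.7% of all genes tested were called higher and 26.0% lower. Hnmt, which methylates and inactivates histamine, had 14.6 to 19.3 FPKM in tumor CD45+ and 1.09 to 6.40 FPKM in splenic CD45+ libraries, a rise of 2.22 (adjusted p = 0.00153 by limma), opposite to the fall of Hdc. Srgn, the core protein of granule proteoglycans, rose by 2.54 (adjusted p = 0.00146 by limma). Slc18a2, the vesicular amine transporter that loads histamine and picked after its values were seen, was at 0.26 to 0.36 FPKM in tumor CD45+, 0.70 to 0.78 FPKM in splenic CD45+ and 0.17 to 0.43 FPKM in splenic CD45- libraries.

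Of 15 lineage transcription factors, 6 were higher and 5 lower in tumor CD45+ than in splenic CD45+ cells, where 37.7% of all genes tested were higher and 26.0% lower. Those higher were Cebpa, Cebpb, Id2, Spi1, Runx1 and Trib1, and those lower were Gata1, Zfpm1, Ikzf1, Cebpe and Stat5b. Cebpa had 47.55 to 78.6 FPKM in tumor CD45+ and 1.65 to 12.2 FPKM in splenic CD45+ libraries (3.27, adjusted p = 7.19e-04 by limma). Spi1 had 243 to 266 FPKM in tumor CD45+ and 33.5 to 98.95 FPKM in splenic CD45+ libraries (1.88, adjusted p = 0.00233 by limma). Gata1, which also drives erythroid cells, had 0 to 0.27 FPKM in tumor CD45+, 109 to 223 FPKM in splenic CD45+ and 230 to 264 FPKM in splenic CD45- libraries. Zfpm1, which encodes the GATA1 cofactor FOG1, had 2.51 to 2.67 FPKM in tumor CD45+, 131 to 242 FPKM in splenic CD45+ and 312 to 385 FPKM in splenic CD45- libraries. Both were highest in splenic CD45- libraries, as the erythroid list was. Cebpe, which is needed for the late granules of neutrophils and eosinophils, had 1.23 to 1.56 FPKM in tumor CD45+, 14.95, 16.7 and 42.2 FPKM in splenic CD45+ and 0.20 to 0.36 FPKM in splenic CD45- libraries. It fell by 3.31 in tumor CD45+ against splenic CD45+ cells (adjusted p = 8.85e-05 by limma). Ikzf1 had a smaller adjusted p than Cebpe in that comparison (adjusted p = 2.87e-05 by limma). Its values were 15.2 to 18.0 FPKM in tumor CD45+ and 59.6 to 84.7 FPKM in splenic CD45+ libraries. Gata2, required for basophils and mast cells and picked after its values were seen, was below 2 FPKM throughout, at 1.39 to 1.77 FPKM in tumor CD45+, 0.66 to 1.59 FPKM in splenic CD45+ and 0.04 to 0.11 FPKM in splenic CD45- libraries.

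Of the 7 growth cytokine receptors, 5 passed the filter and 4 were higher in tumor CD45+ than in splenic CD45+ cells. In that comparison 37.7% of all genes tested were called higher and 26.0% lower. Csf2rb2 and Il3ra had the smallest adjusted p-values of the 4. Of 10 growth cytokines and attractants, 9 had a value. Il5, the eosinophil growth factor, was at 0 to 0.09 FPKM in every library. Some of the chemokines differed in direction from Ccr3. Ccl7, a ligand of CCR3, had 1762 to 4137 FPKM in tumor CD45+ libraries and 0 to 0.07 FPKM in splenic CD45+ libraries (11.5, adjusted p = 1.08e-07 by limma), and Ccl8, whose human counterpart binds CCR3, had 207 to 616 FPKM in tumor CD45+ and 0 to 0.33 FPKM in splenic CD45+ libraries (8.70, adjusted p = 1.39e-06 by limma). Ccl7 and Ccl8, and Lat and Gata1 above, were below 1 FPKM in every library of their lower group, so only the direction found could be called. The next 3, also CCR3 ligands, were picked after their values were seen. Ccl11, an eotaxin, had 0.40 to 1.11 FPKM in tumor CD45+ libraries and was listed at 0 in both splenic groups. Ccl24, another eotaxin, had 2.84 to 10.2 FPKM in tumor CD45+ and 20.1, 0.12 and 0.85 FPKM in splenic CD45+ libraries, and Ccl5 had 18.7 to 48.3 FPKM in tumor CD45+ and 149, 10.9 and 69.2 FPKM in splenic CD45+ libraries. Neither passed the test, with adjusted p-values of 0.634 for Ccl24 and 0.592 for Ccl5 by limma.

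**Figure D4:**
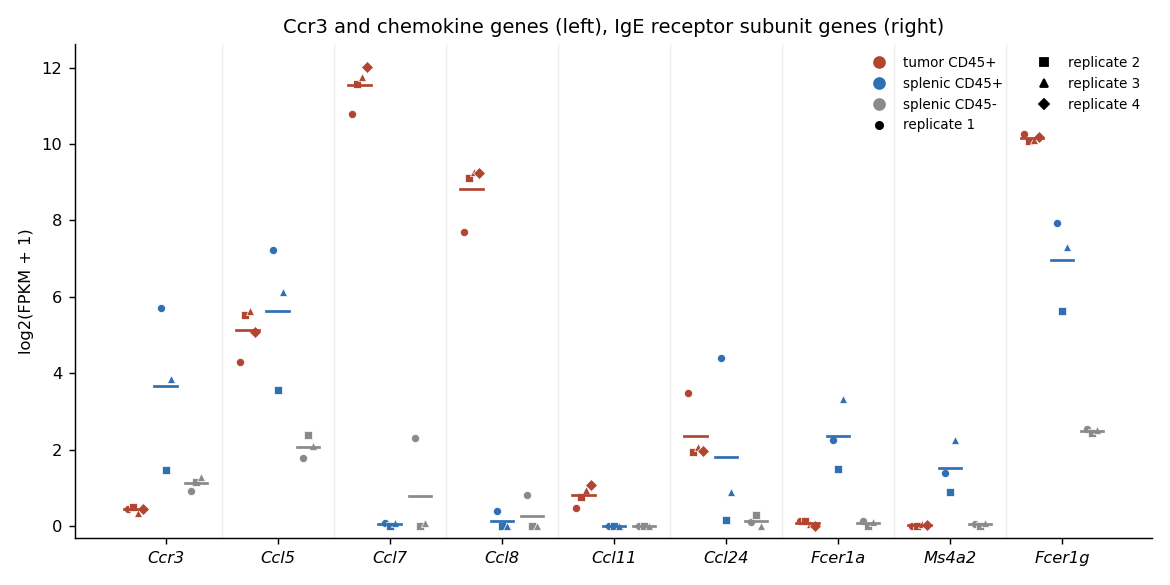
Each point is a library, plotted as log2(FPKM + 1) in the order tumor CD45+, splenic CD45+ and splenic CD45- within each gene, with bars for group means. Ccl7 and Ccl8 are high in tumor CD45+ libraries where Ccr3 is below 0.5 FPKM, and Fcer1g is high there where Fcer1a and Ms4a2 are at 0 to 0.1 FPKM.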

How the data were processed

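RNA-seq was measured in 10 libraries (4 tumor CD45+, 3 splenic CD45+, 3 splenic CD45-). The authors deposited, per library, a table of 61685 RefSeq transcript models with FPKM values. The unit was read from the values, as no label names it. The submitters' processing notes name GRCm38.p6 as build. For the aligner and estimator, names were not given in the sources used. Models were summed per gene, giving 17603 genes, and 1518 models without a symbol were left out. Of the models, 1843 are numbered copies, and Epx is carried by one. Depth was estimated from the step that 1 fragment adds, with model length shortened by 260 bases. A first estimate without shortening fitted the steps less well and was replaced. Fragment numbers are therefore approximate. Differences were tested with limma 3.58.1 in R 4.3.3 (trend, pseudocount 1, a minimum of 1 FPKM in 3 of the compared libraries, Benjamini-Hochberg over all genes tested, 0.05), fitting only the compared groups. The test was also run on simulated normal values with the same spread in both groups, which cannot check it where groups differ in spread, as here. Alternatives were scalings, filters, pseudocount, model choice, replicate block and left-out libraries. All 10 genes were described, with up to 3 called genes per other list by smallest adjusted p, and the 3 genes closest to Prg2. The same list for Mcpt8 is not reported here. The genes and lists were chosen with earlier results of these data known. Fixed motif strings were searched in RefSeq promoters with Python 3.11.15.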

Additional observations from a re-analysis of the deposited data

Results flagged for a closer look

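Among the 4 tumor CD45+ libraries, replicate 1 was the highest and met Dixon's criterion for 3 of the 10 genes. Prg2 was at 2.38 FPKM there, against 0 to 0.06 FPKM in the others. Epx was at 0.04 FPKM and Prss34 at 0.27 FPKM, against 0 in the others. For Epx and Prss34, at about 3 and 7 fragments, the criterion carries no information, since any value above 0 meets it when the other 3 are 0. For Prg2, chance flags about 1 in 20 groups. The same library had a neutrophil list median of 39.5 FPKM, against 1.14 to 1.16 FPKM in the other 3, and a globin share of 10.4%. Their part in the values was not tested.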

How the results depend on the processing

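No direction was reversed under any alternative run for the 8 genes tested in tumor CD45+ against splenic CD45+ and in splenic CD45+ against splenic CD45- cells, or for Hdc in tumor CD45+ against splenic CD45- cells. In tumor CD45+ against splenic CD45+ cells, 136 of 136 single-gene results kept their direction and their call. In splenic CD45+ against splenic CD45- cells 105 did and 15 missed 0.05, all of them Epx (5 alternatives) or Ccr3 (10), with Ccr3 at 1.87 under trimmed-mean scaling (adjusted p = 0.0893 by limma). Genes called among the 10 in that comparison numbered 6 to 8 with 1 library left out. In tumor CD45+ against splenic CD45- cells 1 gene was called. With a filter of 0.5 FPKM in 2 libraries 4 were called (Ccr3 and Prss34 lower, Cpa3 and Hdc higher), and with no filter 5. These counts depend on which of the 10 genes the filter admits, since only Hdc was tested in the main fit. Prg3 and Ms4a2, below the 1 FPKM minimum, were called with that 0.5 FPKM filter in tumor CD45+ against splenic CD45+ cells (-2.93 and -1.49, adjusted p = 0.0220 and 0.00239 by limma) and in splenic CD45+ against splenic CD45- cells (2.85 and 1.46, adjusted p = 0.0449 and 0.0108 by limma). With no filter Prg3 missed in the second of these (adjusted p = 0.0914 by limma). Whether replicate numbers pair the libraries is not known. Deviations from group means correlated at -0.175 to 0.235 between same-numbered libraries, which cannot settle it with 3 or 4 libraries per group. With the replicate block, which leaves out tumor replicate 4, calls among the 10 genes stayed at 8, 8 and 1, and over all genes were 5678, 4851 and 10132, against 7313, 5400 and 10085 without it. Precision is limited for Ms4a2, at 4 to 53 fragments per splenic CD45+ library in its models of known length.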
